A study of Mus musculus with 2 samples.

Results

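The 9 genes described here encode costimulatory receptors and 1 costimulatory ligand of T cells and natural killer (NK) cells. Tnfrsf4 (OX40), Tnfrsf18 (GITR), Tnfrsf9 (4-1BB), Cd27 and Tnfrsf1b (TNFR2) are receptors of the tumor necrosis factor (TNF) receptor superfamily, and Cd40lg (CD40 ligand) is a TNF family ligand. Cd28 and Icos are receptors of the CD28 family, and Cd226 (DNAM-1) is an immunoglobulin family receptor. They were chosen by symbol and make up 9 of the 32285 genes measured.

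The counts came from single-cell RNA sequencing of ovarian tumors at a peritoneal abrasion site in female C57BL/6 mice of 6-8 weeks. All mice carried intraperitoneally injected syngeneic ovarian cancer cells (p53-/-, myc, Hras). They then received control IgG or an Activin A neutralizing antibody, which binds a ligand of the TGFβ family that signals through SMAD proteins. The labels give 7 control IgG mice and 8 antibody mice treated for 10 days, whereas the study describes its single-cell experiment with other numbers. Tumors were pooled into 1 library per group, so no test between groups was possible. Every interval covers counting error at 95% only, and a difference between the libraries cannot be told apart from differences in mice, handling or sequencing.

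T cells are activated by the antigen receptor together with costimulation. CD28 binds CD80 and CD86 on antigen-presenting cells and is present on resting T cells, whereas ICOS, OX40, GITR and 4-1BB are induced or increased after activation. The TNF receptor members recruit TRAF adaptor proteins and activate NF-κB, which supports survival and division. Regulatory T cells of tumors are known for high GITR, OX40, 4-1BB, ICOS and TNFR2. CD27 is lost as T cells differentiate, CD40 ligand is mainly made by activated conventional CD4 T cells, and DNAM-1 on CD8 T and NK cells binds CD155 and CD112.

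Of 15156 cells kept (8770 control IgG and 6386 antibody), 7412 fell into 6 classes gated on marker genes other than the members. The numbers of control IgG and antibody cells were 1886 and 1604 for CD8, 678 and 549 for CD4, and 33 and 18 for the regulatory class (Foxp3, not dividing). They were 1211 and 797 for dividing T cells, 107 and 50 for gamma delta T cells, and 243 and 236 for NK cells. Another 2134 T cells met no class gate and were counted only in the joined T and NK cells, which were 9546 in all. Markers outside the gates were highest in their own class for all 4 regulatory, all 4 dividing, all 6 gamma delta T, 5 of 6 NK and 3 of 4 CD8 markers. Only 1 of 4 CD4 markers was highest in the CD4 class. CD4 here means nondividing T cells with a Cd4 UMI and no Cd8a, Cd8b1 or Foxp3 UMI. Of the kept cells, 19 barcodes occurred in both libraries. The libraries held 98174850 and 74117462 UMIs, with medians of 5719 and 4660 UMIs per kept cell.

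Most of the TNF receptor members lie on chromosome 4 (GRCm38, GENCODE M21). Tnfrsf4 (156013843 to 156016612, plus strand) and Tnfrsf18 (156026164 to 156028895, plus strand) are separated by 9551 bases. Tnfrsf9 lies at 150914562 to 150946102 (plus strand) and Tnfrsf1b at 145213463 to 145246870 (minus strand). Cd28 (60716800 to 60773359) and Icos (60977927 to 61000320) lie on the plus strand of chromosome 1 with Ctla4 between them. Cd27 is on chromosome 6 (125232622 to 125237010, minus strand) and Cd40lg on chromosome X (57212143 to 57224042, plus strand).

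RefSeq promoter sequences (GRCm38.p6) were matched for 5 of the 9 members. They are shown for Tnfrsf9 and Tnfrsf1b, the members past 1.5-fold between the libraries in CD8, CD4 or dividing cells at 200 UMIs or more, and for Tnfrsf4, which separated CD4 from CD8 cells most among the TNF receptor members. Each stretch ends 1 base before the RefSeq start and is written 5′ to 3′ on the strand of its gene. The printed stretches are chr4:150919905-150920154 (plus) for Tnfrsf9, chr4:145246871-145247120 (minus) for Tnfrsf1b and chr4:156013611-156013694 (plus) for Tnfrsf4. The Tnfrsf9 stretch lies inside the annotated span of the Tnfrsf9 gene, which starts at 150914562. The Tnfrsf4 stretch is limited to the 84 bases after the last exon of the neighboring gene Sdf4. Capitals mark matches, on either strand, to the E-box CANNTG, the GC box GGGCGG, the NFAT core GGAAAA and the SMAD box CAGAC.
Tnfrsf9: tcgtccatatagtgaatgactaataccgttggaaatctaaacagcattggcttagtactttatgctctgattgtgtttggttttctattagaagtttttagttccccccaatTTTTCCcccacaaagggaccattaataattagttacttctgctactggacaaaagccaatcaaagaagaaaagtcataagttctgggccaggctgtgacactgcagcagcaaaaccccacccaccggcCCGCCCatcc
Tnfrsf1b: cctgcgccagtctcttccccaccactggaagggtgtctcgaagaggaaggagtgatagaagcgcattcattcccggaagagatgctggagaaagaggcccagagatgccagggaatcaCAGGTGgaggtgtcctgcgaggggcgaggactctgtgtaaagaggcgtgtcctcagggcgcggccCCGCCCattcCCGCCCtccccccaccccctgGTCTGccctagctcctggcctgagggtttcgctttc
Tnfrsf4: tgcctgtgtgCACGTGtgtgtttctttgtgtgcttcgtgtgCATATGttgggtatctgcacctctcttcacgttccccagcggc

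The Tnfrsf9 stretch held 1 NFAT core and 1 GC box, and the Tnfrsf1b stretch held 2 GC boxes, 1 E-box and 1 SMAD box. The Tnfrsf4 stretch held 2 E-boxes. Among 32841 RefSeq windows of 250 bases, 20.4% held the NFAT core, 32.7% the GC box, 66.2% the E-box and 42.2% the SMAD box, and 29.4% of windows of 84 bases held the E-box. The AP-1 motif TGANTCA (6.75% of windows), the RUNX motif TGTGGT (14.0%), the TATA box TATAAA (12.4%) and the NF-κB consensus (7.25%) had no match in the 3 printed stretches. A second RefSeq entry of Tnfrsf9, at chr4:150927749-150927998 (plus) and not printed, held 2 overlapping NF-κB matches, 1 AP-1 match, 4 E-boxes and 1 SMAD box, so the printed stretch does not stand for all Tnfrsf9 promoters. These matches describe letters and not bound sites.

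Tnfrsf4 had its highest levels in regulatory and CD4 cells. Its level in counts per 1000000 UMIs of the class (CPM) was 752 in control IgG and 681 in antibody regulatory cells, and 181 and 250 in CD4 cells. Dividing cells were at 56.2 and 68.4, and CD8 cells at 8.16 and 7.68. By UMIs over both libraries, dividing cells held 1357, CD4 cells 1233 and regulatory cells 204. Over both libraries, Tnfrsf4 was 26.5-fold higher in CD4 than in CD8 cells, a fold that rests on a low CD8 level. That level was near the 6.87 and 9.24 CPM of cancer-like cells, whereas macrophages and monocytes were at 1.08 and 1.54 CPM. NK cells held 1 UMI in each library, and gamma delta T cells held 1 and 3. In the order of the classes, only CD8 and gamma delta T cells, at 7.95 and 6.86 CPM over both libraries, did not differ beyond counting error.

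Tnfrsf18, the neighbor of Tnfrsf4 in the genome, had the same leading classes but a higher floor. Its level was 643 and 693 CPM in regulatory cells and 208 and 268 in CD4 cells, in the order control IgG and antibody here and below. The 4 other classes lay between 73.3 and 119 CPM in both libraries. Among these 4 classes, neighbors in the order did not differ beyond counting error over both libraries. Dividing and NK cells were above CD8 cells, the lowest class, by log2 0.42 (0.32 to 0.52) and 0.42 (0.20 to 0.63). CD4 cells were 3.16-fold above CD8 cells.

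Tnfrsf9 was highest in regulatory cells, at 659 and 716 CPM. Over both libraries NK cells came next, with 167 and 89.6 CPM, followed by dividing cells (55.0 and 95.2, above NK cells in the antibody library), CD8 cells (50.9 and 65.9) and CD4 cells (40.8 and 50.4). Gamma delta T cells held 6 and 4 UMIs. All neighbors in this order differed beyond counting error when the libraries were joined.

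Cd27 and Tnfrsf1b were also highest in regulatory cells, with 285 and 242 CPM for Cd27 and 301 and 289 for Tnfrsf1b. For Cd27, CD8 cells (126 and 141) and gamma delta T cells (116 and 96.4) followed, and CD4, dividing and NK cells lay between 62.5 and 82.6. Tnfrsf1b was between 59.0 and 136 CPM in the other classes, dividing cells were at 0.68 times the CD8 level over both libraries, and CD4 and CD8 cells were at 102 CPM each over both libraries. Tnfrsf1b was also found in macrophages and monocytes, at 144.5 and 157 CPM, where the other members were at 24.8 CPM or less.

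Cd40lg, the ligand among the members, had its highest level in CD4 cells, at 82.1 and 101.9 CPM. CD8 cells were at 1.84 and 3.50 CPM, so that CD4 cells were 35.5-fold higher over both libraries. No UMI was found in regulatory or NK cells of either library. With 3 counts as the limit that a count of 0 allows over both libraries, CD4 cells were at least 8.45-fold above regulatory and at least 63.9-fold above NK cells. Dividing cells held 15.7 and 17.3 CPM, and gamma delta T cells 0 and 3 UMIs.

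The CD28 family members were detected in all 6 classes. Cd28 was at 368 and 355 CPM in CD4 cells, 239 and 320 in CD8 cells, 201 and 226 in dividing cells and 59.9 and 98.9 in NK cells. Icos was at 565 and 947 CPM in regulatory cells and 387 and 417 in CD4 cells. It was at 246 and 291 in CD8 cells, 145 and 185 in dividing cells and 40.8 and 26.0 in NK cells. For Icos every step in the order of the classes was beyond counting error over both libraries. Cd28 in CD4, regulatory and CD8 cells was not separated between neighbors. CD4 and CD8 cells, which are not neighbors in that order, did differ for Cd28 (log2 0.40, 0.33 to 0.48).

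For Cd226, CD8 cells were highest with 567 and 541 CPM, followed by CD4 cells (477 and 443), dividing cells (428 and 405), gamma delta T cells (379 and 403) and NK cells (277 and 205). Regulatory cells, which led for Icos, were lowest for Cd226, with 17 and 10 UMIs or 88.2 and 115 CPM. Joined over both libraries, the regulatory level was 0.21 times that of CD4 cells (log2 -2.26, interval -2.86 to -1.71).

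**Figure D1:**
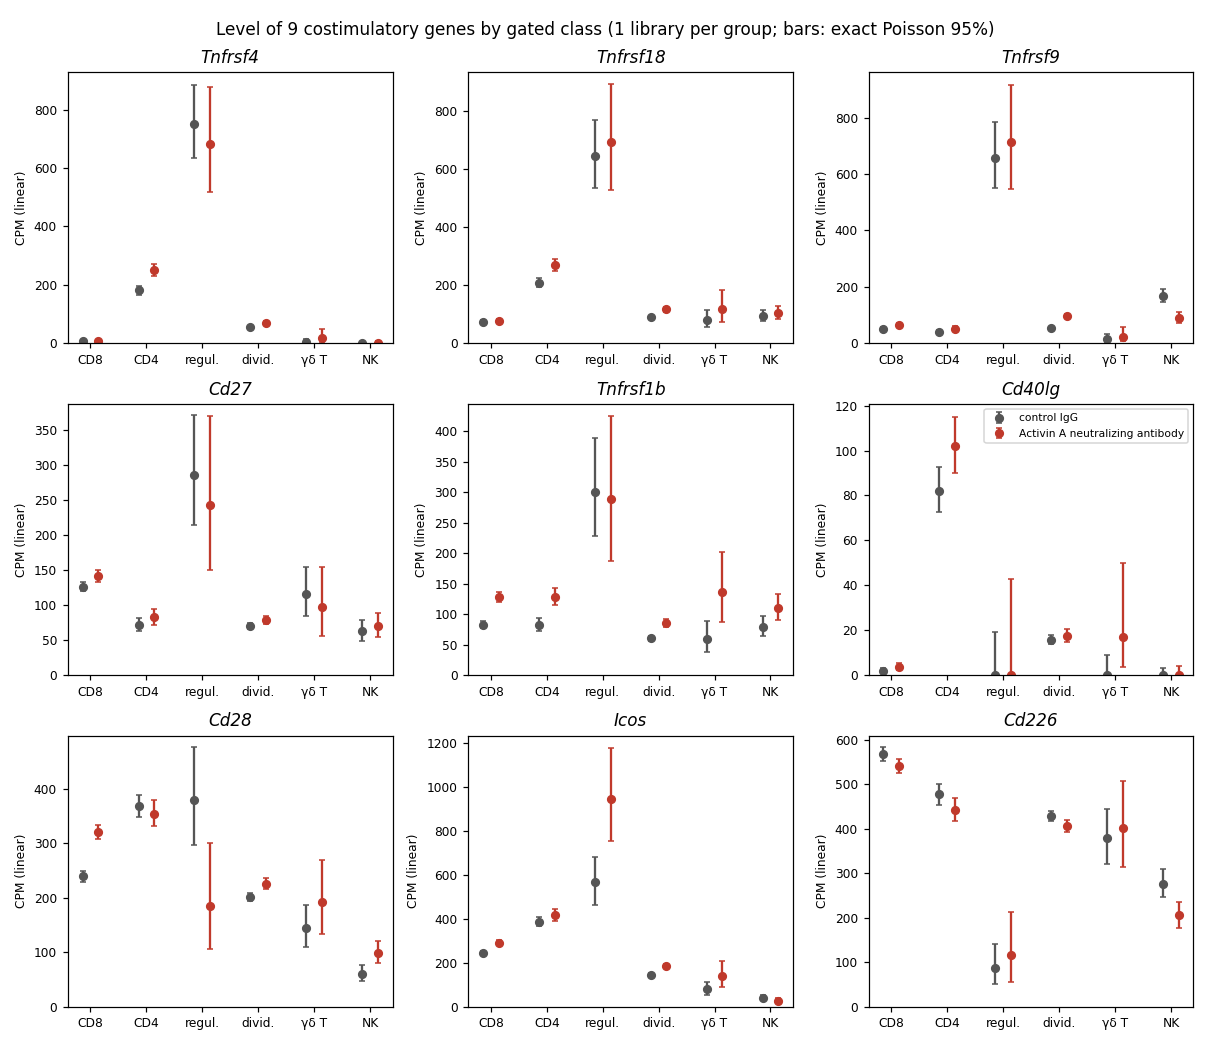
Level of each member in CPM (linear axis from 0) in the 6 gated classes, with control IgG in grey and Activin A neutralizing antibody in red. Points are single pooled libraries and bars are exact Poisson 95% intervals. Regulatory cells (regul.) were highest for Tnfrsf4, Tnfrsf18, Tnfrsf9, Cd27, Tnfrsf1b and Icos, CD4 cells for Cd40lg and CD8 cells for Cd226.

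Regulatory cells were set against CD4 cells directly, over both libraries. All 5 TNF receptor members were at least 2-fold higher in regulatory cells: Tnfrsf9 by 15.1-fold (log2 3.91, interval 3.63 to 4.19), Cd27 by 3.56-fold, Tnfrsf4 by 3.47-fold, Tnfrsf1b by 2.91-fold and Tnfrsf18 by 2.81-fold. Of all genes with at least 20 UMIs in the 2 classes, 7.92% were 2-fold higher and 14.8% were 2-fold lower. Icos was 1.71-fold higher (log2 0.77, 0.55 to 0.99) and Cd28 did not differ beyond counting error (log2 -0.19, -0.51 to 0.12). In each library alone, the Cd28 ratio was 0.04 (-0.32 to 0.38) in control IgG and -0.94 (-1.75 to -0.23) in the antibody library. Cd226 and Cd40lg were the 2 members at least 2-fold lower. The direction for the 5 TNF receptors and Icos was the same in each library alone, for example 16.2-fold and 14.2-fold for Tnfrsf9. The regulatory class was small, and in the antibody library 1 of its 18 cells held all UMIs of the free RNA genes (hemoglobins, S100a8, S100a9, Saa3, Lyz2) found in it, which summed to 1985 CPM against 135 in control IgG. With cells of 5 or more such UMIs left out, the 8 members detected in both classes had ratios within the intervals of the full classes.

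Single regulatory cells held UMIs of more members, by the median, than cells of the other classes. This did not hold for every member, since Cd40lg was not detected in them. Cd226 and Cd28 were detected in 16 and 32 of 51 regulatory cells, smaller shares than the 846 and 878 of 1227 CD4 cells. For Cd28 the CPM of these classes did not differ beyond counting error (log2 -0.19, -0.51 to 0.12), and the difference in shares was not tested. Of the 51 regulatory cells, 50 held UMIs of at least 3 members, with a median of 6 members per cell. The median was 4 in CD4 and dividing cells, 3 in CD8 cells and 2 in gamma delta T and NK cells. Depth per cell differs between these classes, with median UMIs of 4716 and 4033.5 in regulatory and 10490 and 9308 in dividing cells. In regulatory cells, Tnfrsf4 was found with Tnfrsf9 in 72.5% of cells (product of the single shares 71.0%) and with Icos in 66.7% (67.7%). Tnfrsf4 with Tnfrsf18 was at 82.4% (77.8%), Cd27 with Cd28 at 45.1% (38.1%) and Tnfrsf1b with Cd226 at 15.7% (20.9%). Where most of the 51 cells hold each gene, the share with both has little room to differ from the product. These values therefore do not show whether regulatory and CD4 cells differ in pairing. In CD4 cells, Tnfrsf4 and Tnfrsf18 were both detected in 24.7% of cells, where the product of their single shares is 17.6%. Cells with a Tnfrsf4 UMI were also deeper, and the part of depth was not tested.

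The share of cells with a UMI was compared after thinning each cell to 2000 UMIs, which kept 49 of 51 regulatory, 1203 of 1227 CD4, 3444 of 3490 CD8 and 573 of 576 cancer-like cells. Tnfrsf4 was detected in 65.3% of regulatory cells, 20.9% of CD4 cells and 1.02% of CD8 cells, and in 1.75% of cancer-like cells. The CD8 share was thus no higher than that of cancer-like cells, but whether cancer-like cells lack Tnfrsf4 was not tested. In CPM, macrophages and monocytes (1.08 and 1.54, from 13 and 5 UMIs) were below CD8 cells (8.16 and 7.68). Cd40lg was detected in 16.1% of thinned CD4 cells and in 0.523% of CD8 cells, and Icos in 67.3% of regulatory and 48.6% of CD4 cells. Unthinned, the Tnfrsf4 shares were 86.3% of regulatory, 32.9% of CD4, 2.46% of CD8 and 19.4% of cancer-like cells. Cancer-like cells had median depths of 54126 and 55234.5 UMIs, against 4639.5 and 4199.5 in CD8 cells.

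Antibody and control IgG libraries were compared next in all gated T and NK cells. Of the 9 members, 8 had a higher level in the antibody library and Cd226 a slightly lower one. Tnfrsf1b differed most, at 73.6 and 108.9 CPM (log2 0.57, interval 0.48 to 0.65, 1.48-fold). Cd40lg (log2 0.38, 0.22 to 0.54) and Tnfrsf9 (log2 0.36, 0.26 to 0.45) followed. The other 5 members with higher levels were between 0.15 for Cd27 and 0.26 for Cd28 and Icos, and Cd226 was at -0.06 (-0.10 to -0.03). The median over all genes was within 0.0641 of 0 in each of the 6 classes on the same scale. No median or share of all genes above 0 was computed for the joined cells, which also hold T cells that met no class gate. UMIs of the exclusion panel, which marks myeloid, B, stromal and cancer cells, were 50.6 CPM in the control IgG and 35.4 CPM in the antibody T and NK cells. Free RNA made up an estimated 2.79% and 5.62% of their UMIs, and in the antibody library 1 dividing cell held 57.1% of the UMIs behind that estimate. With free RNA subtracted Tnfrsf1b was at 0.59, and with no exclusion the members were all higher in the antibody library, with Cd226 at log2 0.06.

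In CD8 cells, the TNF receptors Tnfrsf1b and Tnfrsf9 and the CD28 family members were higher in the antibody library. Tnfrsf1b was at 82.7 CPM (811 UMIs) and 127 CPM (944 UMIs), a log2 difference of 0.62 (0.48 to 0.76). Cd28 differed by 0.42 (0.34 to 0.51), Tnfrsf9 by 0.37 (0.19 to 0.56), Icos by 0.24 (0.16 to 0.33) and Cd27 by 0.16 (0.04 to 0.28). Cd40lg had the largest difference, 0.93 (0.01 to 1.89), but on only 18 and 26 UMIs. Cd226 was slightly lower, at -0.07 (-0.13 to -0.01). Tnfrsf4 (-0.09) and Tnfrsf18 (0.04) did not differ beyond counting error. None of the 9 members was 2-fold higher or lower, where 1.19% of all genes with at least 20 UMIs were 2-fold higher and 1.95% 2-fold lower. At 1.5-fold and at least 200 UMIs, Tnfrsf1b was the 1 of 7 members higher, against 1.42% of genes.

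In CD4 cells, the same receptor Tnfrsf1b and the Tnfrsf4-Tnfrsf18 pair were higher with the antibody. Tnfrsf1b was at 82.4 and 127.9 CPM (log2 0.63, 0.40 to 0.87), Tnfrsf4 differed by 0.47 (0.31 to 0.63), Tnfrsf18 by 0.37 (0.21 to 0.52) and Cd40lg by 0.31 (0.06 to 0.56). Cd28 (-0.05, -0.18 to 0.07) and Icos (0.11, -0.01 to 0.23) had intervals that included 0. No member passed 2-fold, with 1.43% of genes 2-fold higher and 2.07% lower. Tnfrsf1b was the 1 of 9 members past 1.5-fold, against 2.5% of genes with at least 200 UMIs.

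Dividing T cells differed most for Tnfrsf9. Its level was 55.0 CPM (776 UMIs) in control IgG and 95.2 CPM (786 UMIs) in the antibody library, a log2 difference of 0.79 (0.65 to 0.94). Tnfrsf1b differed by 0.49 (0.35 to 0.64), Tnfrsf18 by 0.37 (0.25 to 0.50), Icos by 0.35 (0.25 to 0.44) and Tnfrsf4 by 0.28 (0.13 to 0.44). No member passed 2-fold, with 1.51% of genes higher and 1.75% lower, and Tnfrsf9 was the 1 of 9 members past 1.5-fold, against 1.78% of genes.

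NK cells went the other way for Tnfrsf9. It was at 167 CPM (193 UMIs) in control IgG and 89.6 CPM (86 UMIs) in the antibody library (log2 -0.90, -1.29 to -0.53). Cd226, an activating receptor of NK cells, was also lower (log2 -0.43, -0.70 to -0.17), while Cd28 (0.72, 0.26 to 1.19) and Tnfrsf1b (0.47, 0.05 to 0.89) were higher. The Tnfrsf9 difference was -0.35 (-0.85 to 0.14) without the 10% of cells with most UMIs, and -0.40 (-0.83 to 0.01) where NK cells could hold no Cd3 UMI. Whether NK and T cells differed in their Tnfrsf9 ratio was not tested. None of 7 members passed 2-fold, against 2.14% of genes higher and 2.13% lower.

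Regulatory and gamma delta T cells were few, 51 and 157 over both libraries. In regulatory cells, Icos was 565 CPM (109 UMIs) and 947 CPM (82 UMIs), a log2 difference of 0.74 (0.31 to 1.17), and Cd28 was 379 CPM (73 UMIs) and 185 CPM (16 UMIs), a difference of -1.04 (-1.92 to -0.24). Cd28 was the 1 of 8 members tested that was 2-fold lower, and none was 2-fold higher. Of all genes in this class, 8.14% were 2-fold higher and 6.68% lower. Of its 4 markers, Il2ra was at 612 and 358 CPM and Ctla4 at 1696 and 1004. Ikzf2 was at 2833 and 3105 and Ikzf4 at 46.7 and 46.2. Il7r, listed as a CD4 marker, was at 285 and 681 CPM in regulatory cells. Whether the makeup of the class differed between the libraries was not tested. Without the cells of 5 or more free RNA gene UMIs (1 in each library), the Cd28 interval included 0 (log2 -0.79, -1.69 to 0.03), while Icos was at 0.98 (0.54 to 1.41). The 5 TNF receptors in regulatory cells had differences from -0.24 to 0.12, all with intervals that included 0. That class holds no dividing Foxp3 cells. In those, Tnfrsf18 was at 297 and 710 CPM (log2 1.26, 0.37 to 2.20) and Tnfrsf4 at 390 and 631 (0.69, -0.15 to 1.56). Tnfrsf9 went the other way there, at 372 and 158 (-1.24, -2.63 to 0.01). The values of dividing Foxp3 cells rest on few UMIs, as their wide intervals show, and this split was made after values had been seen. No share of all genes past 2-fold was computed for them. Whether they differed from the regulatory class was not tested. In gamma delta T cells, Tnfrsf1b was 59.0 and 136 CPM, with 24 UMIs in each library (log2 1.21, 0.33 to 2.08), the 1 of 6 members tested that was 2-fold higher. There, 2.82% of genes were 2-fold higher and 5.22% lower. Icos of gamma delta T cells differed by 0.85 (0.03 to 1.65), on 32 and 25 UMIs.

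The share of cells with a UMI, thinned to 2000 UMIs, was read for the members that differed most. Tnfrsf1b was detected in 15.2% of 1864 control IgG and 22.0% of 1580 antibody CD8 cells, with intervals of 13.6% to 16.9% and 19.9% to 24.1%. In CD4 cells it was detected in 13.4% of 664 and 19.1% of 539 cells, against 1.57% of cancer-like cells in each library. At 2000 UMIs per cell such a share follows largely from the level, so it is not a separate result. Whether more cells held Tnfrsf1b, or the same cells held more, was not tested. Tnfrsf4 was detected in 17.2% and 25.6% of CD4 cells, Cd28 in 37.1% and 44.2% of CD8 cells and Tnfrsf9 in 7.44% and 10.9% of dividing cells. In NK cells the Tnfrsf9 shares, 14.5% of 235 (10.2% to 19.6%) and 10.96% of 219 (7.15% to 15.9%), had intervals that overlapped. Unthinned, the Tnfrsf1b shares were 31.4% and 39.6% of CD8 cells and 29.9% and 38.4% of CD4 cells.

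**Figure D2:**
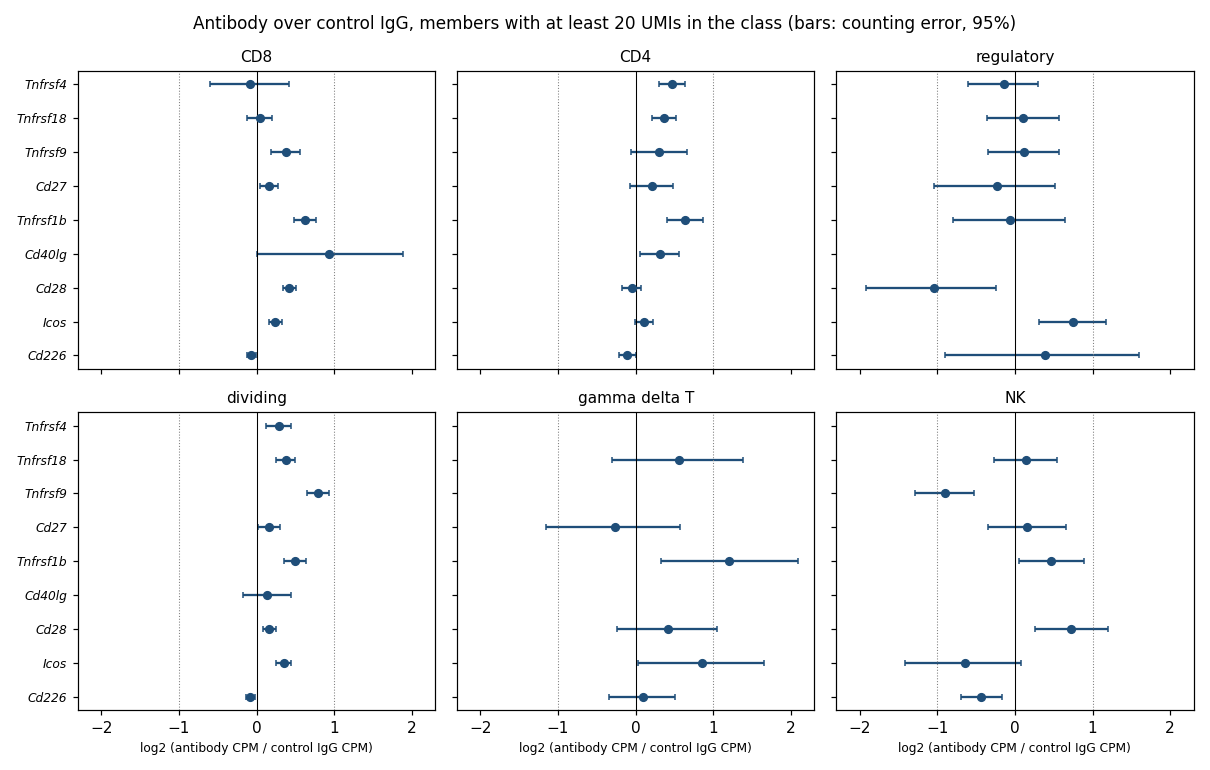
Log2 ratio of antibody over control IgG CPM for the members with at least 20 UMIs in each class, with 95% intervals for counting error and dotted lines at 2-fold. Tnfrsf1b lay above 0 in CD8, CD4, dividing, gamma delta T and NK cells. In regulatory cells its wide interval (-0.80 to 0.64) included both 0 and the CD8 and CD4 values. The Tnfrsf9 interval lay above 0 in CD8 and dividing cells and below 0 in NK cells.

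CD8 cells were split further, after the class values had been seen, into cells with at least 2 Gzmb UMIs and no Tcf7 or Lef1 UMI and cells with at least 2 UMIs of Tcf7 and Lef1 together and no Gzmb UMI. Gzmb encodes granzyme B of cytotoxic effector cells, and Tcf7 and Lef1 encode transcription factors of naive, memory and stem-like T cells. Gzmb cells (785) had 3.77-fold more Tnfrsf9 than Tcf7 or Lef1 cells (823), 1.92-fold more Icos, 1.55-fold more Tnfrsf1b and 1.30-fold more Cd27, and 0.77 times the Cd28. The Gzmb pattern was found in 371 control IgG and 414 antibody cells, and the Tcf7 or Lef1 pattern in 497 and 326.

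The difference between libraries was present within both patterns for Tnfrsf1b and Cd28. Tnfrsf1b was at 59.2 and 108 CPM in Tcf7 or Lef1 cells (log2 0.87, 0.52 to 1.22) and at 101 and 140 in Gzmb cells (0.47, 0.20 to 0.73). Cd28 differed by 0.38 (0.20 to 0.55) and 0.48 (0.29 to 0.67). Icos was at 150 and 218 CPM in Tcf7 or Lef1 cells (0.54, 0.31 to 0.77) and at 345 and 330 in Gzmb cells (-0.06, -0.22 to 0.09). Tnfrsf9 differed by 1.09 (0.40 to 1.78) in Tcf7 or Lef1 cells, from 14.8 to 31.4 CPM, and by 0.20 (-0.12 to 0.52) in Gzmb cells. Whether the difference itself varied between the 2 patterns was not tested.

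Most dividing T cells were of the CD8 lineage, 831 and 549 of 1211 and 797. Compared with CD8 cells that were not dividing, their CPM was 2.16-fold higher for Tnfrsf4 over both libraries. It was lower for Icos (0.53 times), Cd27 (0.65 times) and Cd28. The Tnfrsf4 fold rests on low levels, 14.8 and 21.1 CPM in dividing CD8 cells and 8.16 and 7.68 in the others. Free RNA (barcodes with under 100 UMIs) held 24.5 and 27.1 CPM of Tnfrsf4. CPM is a share of UMIs, and counts per cell were not compared. Median UMIs per cell were 10490 and 9308 in the dividing class and 4639.5 and 4199.5 in CD8 cells. Tnfrsf9 of dividing CD8 cells was 1.11-fold that of other CD8 cells in control IgG (log2 0.15, -0.02 to 0.33) and 1.59-fold in the antibody library (0.67, 0.49 to 0.84). In dividing CD8 cells, Tnfrsf9 was at 56.5 CPM in control IgG and 105 CPM in the antibody library (log2 0.89, 0.72 to 1.06). Dividing CD4 cells (212 and 125) had 0.41 times the Cd27 of other CD4 cells and 0.59 times the Icos. Their Tnfrsf9 was at 30.9 and 41.3 CPM (log2 0.42, -0.12 to 0.95).

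**Figure D3:**
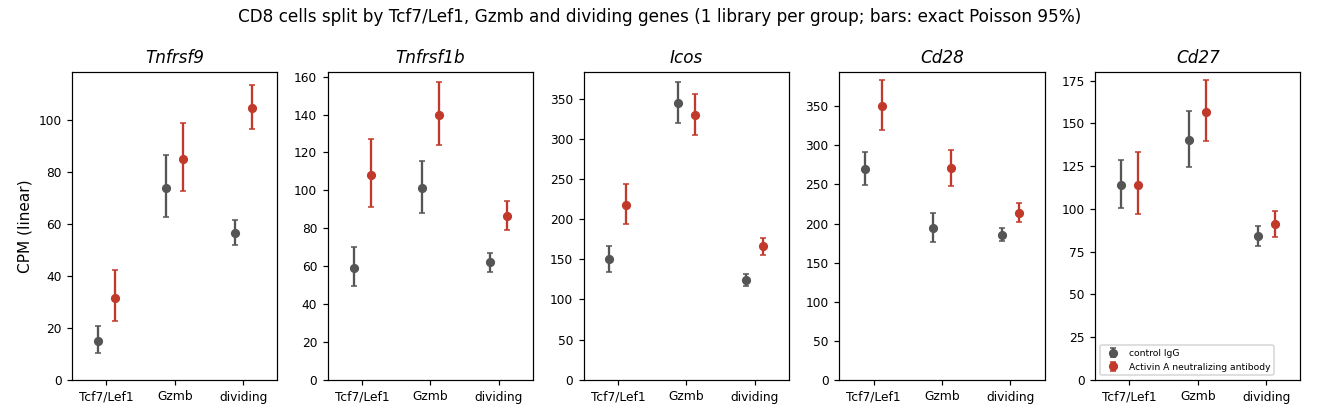
Level in CPM (linear axis from 0) of 5 members in CD8 cells with Tcf7 or Lef1, CD8 cells with Gzmb and dividing CD8 cells. Points are single pooled libraries (grey control IgG, red antibody) with exact Poisson 95% intervals. Tnfrsf1b and Cd28 were higher in the antibody library in all 3 groups of cells, and Tnfrsf9 was at 56.5 and 105 CPM in dividing cells.

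CD4 cells differed among themselves in the OX40-GITR pair. The 404 CD4 cells with a Tnfrsf4 UMI had 2.21-fold more Tnfrsf18, 2.46-fold more Tnfrsf9 and 2.68-fold more Il2ra (the high-affinity interleukin 2 receptor chain) than the 823 without. They had 0.53 times the Tcf7, 0.71 times the Cd28 and 0.75 times the Cd40lg. Median UMIs per cell were 5275.5 and 3962, so depth also differed. Between the libraries, Tnfrsf4 was at 121 and 269 CPM in CD4 cells with at least 2 Tcf7 and Lef1 UMIs together (log2 1.15, 0.89 to 1.42). It was at 290 and 278 in CD4 cells without either gene (-0.06, -0.32 to 0.20). Tnfrsf9 was at 1.08 (0.40 to 1.76) with Tcf7 or Lef1 and -0.42 (-0.98 to 0.13) without. Tnfrsf1b was higher in both, by 0.64 (0.28 to 1.00) and 0.50 (0.07 to 0.93). CD4 cells with 1 Tcf7 or Lef1 UMI were in neither group, and no share of all genes past 2-fold was computed for this split. Lef1, which defines the split, was itself at 329 and 255 CPM in CD4 cells.

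NK cells were split by Mki67 and Top2a. The 34 dividing NK cells had 0.24 times the Cd27 and 0.40 times the Tnfrsf1b of the 445 others. Their Tnfrsf9 was 1.16-fold that of the others in control IgG (log2 0.21, -0.28 to 0.68) and 1.99-fold in the antibody library (0.99, 0.24 to 1.70). In NK cells that were not dividing, Tnfrsf9 was at 161 and 77.6 CPM (log2 -1.06, -1.51 to -0.62) and Cd226 at 268 and 177 (-0.59, -0.90 to -0.29). In all NK cells the Tnfrsf9 difference lay between -0.93 and -0.35 under 11 alternatives, which were not applied to this split. The part of dividing cells in the difference was not tested.

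Outside the lymphocytes, dendritic cells held several members. Tnfrsf4 was at 37.0 and 37.2 CPM there, Tnfrsf18 at 64.6 and 55.8, Tnfrsf9 at 41.7 and 48.6, and Tnfrsf1b at 79.2 and 75.8. The profile of free RNA (barcodes with under 100 UMIs) held 24.5 and 27.1 CPM of Tnfrsf4, 41.4 and 58.9 of Tnfrsf1b and 97.3 and 115 of Cd226. In macrophages and monocytes, Tnfrsf1b did not differ between the libraries beyond counting error (log2 0.12, -0.02 to 0.27).

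Partner genes of the members were next read in the cells that present them. Cd86, a ligand of CD28, was at 258 and 365 CPM in macrophages and monocytes (log2 0.50, 0.40 to 0.60) and at 333 and 285 in dendritic cells. Tnfsf9, the 4-1BB ligand, was at 49.7 and 90.5 CPM in macrophages and monocytes (log2 0.87, 0.66 to 1.07) and at 79.2 and 87.2 in dendritic cells. Tnf, a ligand of TNFR2, was at 143 and 164 CPM in macrophages and monocytes and at 90.4 and 50.0 in dendritic cells (log2 -0.85, -1.28 to -0.44). Cd40, the receptor of CD40 ligand, was lower with the antibody in both, by log2 -0.35 and -0.53. In cancer-like cells the Cd226 ligand genes Nectin2 (45.2 and 33.1 CPM) and Pvr (18.1 and 20.9) had the most UMIs of the list. Macrophages and monocytes were 17.8% of control IgG cells and 8.11% of antibody cells. No share or median of all genes was computed for macrophages and monocytes, dendritic or cancer-like cells.

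**Figure D4:**
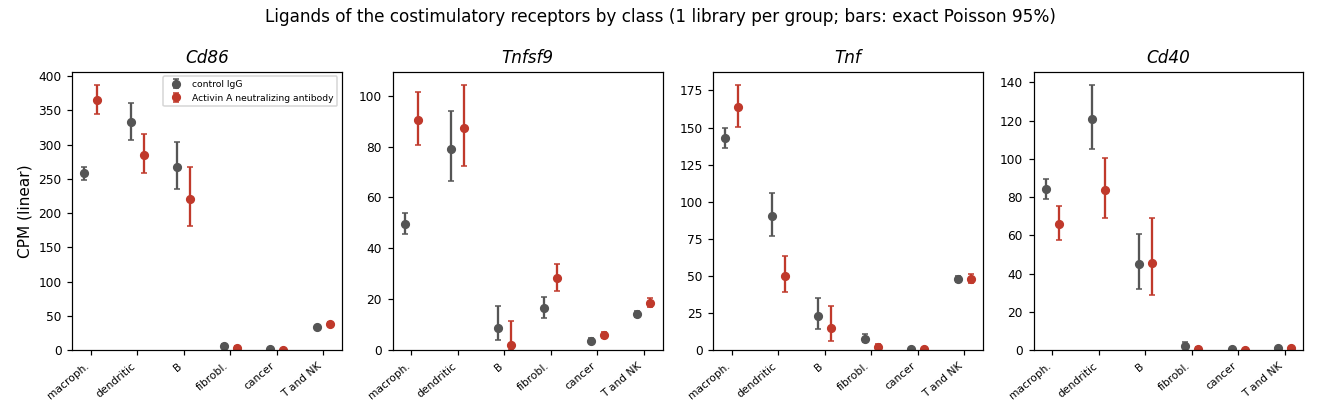
Level in CPM (linear axis from 0) of 4 partner genes of the members in 5 other cell classes and in the joined T and NK cells. Points are single pooled libraries (grey control IgG, red antibody) with exact Poisson 95% intervals. Tnfsf9 and Cd86 were higher in antibody macrophages and monocytes, and Tnf and Cd40 were lower in antibody dendritic cells.

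Adaptors and targets of the receptors were read as a list of 25 genes, chosen with earlier results of these data known. No share of all genes above 0 was computed for this or the other lists. The classes share the same 2 libraries, so their counts are not independent. In CD8 cells 21 of 25 were above 0 and none passed 2-fold, with a median log2 difference of 0.20 against 0.02 over all genes tested. In CD4 cells 23 of 25 were above 0 (median 0.33 against 0.01), and in dividing cells 22 of 25 (0.30 against 0.04). Nfkbia, a target and inhibitor of NF-κB, was at 354.5 and 544 CPM in CD4 cells (log2 0.62, 0.50 to 0.73) and at 218.6 and 315.5 in dividing cells (0.53, 0.45 to 0.61). Grap2 and Prkcq, which act downstream of the antigen receptor and CD28, were at -0.23 and -0.37 in CD4 cells. In NK cells 1 of 24 tested adaptors, Map3k14 (56 and 101 UMIs), was past 2-fold, where 2.14% of all genes were 2-fold higher.

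In NK cells 18 of these 24 were above 0 (median 0.24 against 0.04). Regulatory cells had 10 of 16 above 0 (median 0.31 against 0.06). Traf3 and Tnfaip3 were past 2-fold higher and Bcl2l1 past 2-fold lower there, where 8.14% and 6.68% of all genes were. Gamma delta T cells had 15 of 22 above 0 (median 0.13 against 0.005), with Rela past 2-fold higher, against 2.82% of all genes.

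Other receptors of the same families were read as a list of 12. Of 11 tested in CD8 cells, 5 were above 0 and none passed 2-fold, with a median of -0.06 against 0.02 over all genes. Ctla4, an inhibitory receptor of the CD28 family, differed by 0.24 (0.16 to 0.31) in CD8 and 0.29 (0.22 to 0.37) in dividing cells, and Pdcd1 by 0.28 (0.19 to 0.38) in CD8 cells. Slamf1 differed by 0.57 (0.40 to 0.74) in CD8 cells. In CD4 cells Tnfrsf8 (7 and 23 UMIs) was the 1 of 11 past 2-fold, where 1.43% of all genes were 2-fold higher. The median over the list was 0.05 there. The medians were 0.09 over 11 in dividing and 0.30 over 6 in NK cells, with none past 2-fold. Regulatory cells had 1 of 4 above 0 (median -0.56 against 0.06 over all genes). Ctla4, itself a regulatory cell marker, was at 1696 and 1004 CPM there (log2 -0.76, -1.11 to -0.41), and Pdcd1 held 18 and 2 UMIs. Pdcd1 was the 1 of 4 past 2-fold lower in regulatory cells, and the 1 of 3 in gamma delta T cells (73 and 14 UMIs). Over all genes, 6.68% were 2-fold lower in regulatory and 5.22% in gamma delta T cells.

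The partner genes within T and NK cells were mostly sparse. Of the 12 ligand genes, 7 could be tested in CD8 cells (6 above 0, median 0.10), 8 in CD4 cells (4 above 0, median 0.00), 9 in dividing cells (6 above 0, median 0.24), 3 in NK cells, 1 in gamma delta T cells and 0 in regulatory cells. Past 2-fold were Cd70 in CD4 cells (7 and 17 UMIs), Tnfsf4 (5 and 15) and Cd70 (45 and 9, lower) in dividing cells, and Cd86 in NK cells (4 and 27). Over all genes, 1.43% were 2-fold higher in CD4 cells, 1.51% higher and 1.75% lower in dividing cells and 2.14% higher in NK cells.

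Genes with the pattern most like each member were sought over 12 points (6 classes in 2 libraries) among 9881 genes, as Pearson's r of log2(CPM + 10). They are given as a description, since the points share libraries and the small regulatory class weighs on all of them. Tnfrsf4 was most like Dusp4 (r = 0.96), Odc1 and Ass1, and Tnfrsf18 most like Areg (0.96), Odc1 and Zbtb7b. Tnfrsf4 and Tnfrsf18 had an r of 0.92 with each other. Cd40lg was most like Igfbp7 (0.97), Gm49180 and Tnfsf11, and Icos most like Igflr1 (0.98), Tnfrsf13b and Gpr55. Tnfrsf9 was most like Tmco6 (0.96), Ccdc90b and Skap2, Cd27 most like Gbp7 (0.93), Pabpc1l and Ostm1, and Tnfrsf1b most like Bcl3 (0.95), Wnk1 and Klhdc3. Cd28 was most like Isg20 (0.95), Map4k2 and Aopep, and Cd226 most like Gm45902 (0.96), Fam78a and Dipk1a.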

How the data were processed

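Single-cell RNA sequencing (10x Genomics, 3') had been run on 1 pooled library per group. The authors deposited unfiltered gene-by-barcode counts of unique molecular identifiers (UMIs), made on mm10 with Cell Ranger 7.0.1 per the submitters' processing notes and the study's methods, whereas the file headers name Cell Ranger 4. Whether intronic reads were counted is not given in the sources used here. The sources also differ on the number of mice, the days of treatment and the kit chemistry.

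Cells with 1000-8500 genes, 1000-100000 UMIs and at most 10% mitochondrial UMIs were kept. T cells had at least 2 Cd3d, Cd3e and Cd3g UMIs and fewer than 3 UMIs of a 17-gene panel of myeloid, B, stromal and cancer genes, which removed 537 of 9604 Cd3 cells. Further gates used Cd8a and Cd8b1, Cd4, Foxp3, Mki67 and Top2a, Trdc, and Ncr1 and Klrb1c. No doublet caller was run. Raw UMIs were summed per class and library and divided by all UMIs of the class (CPM). Levels carry exact Poisson, shares Clopper-Pearson and log2 ratios conditional exact binomial 95% intervals, which cover counting error only. Genes needed 20 UMIs over both libraries to enter counts past 2-fold. Free RNA was read from barcodes under 100 UMIs. With 1 library a group, the groups were compared by value and interval only. Members and gene lists were chosen with earlier results of these data known, and all members, at most 4 list genes with most UMIs per class, list genes past 2-fold and the 3 genes most like each member were named. The splits of CD8, CD4, NK and dividing cells and the 1.5-fold counts were added after seeing values. Python 3.11.15, numpy 2.4.6, pandas 2.3.3, scipy 1.17.1 and matplotlib 3.10.9 were used, and the calculations were tested on simulated data. The result of 1 list gene is not reported here.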

Additional observations from a re-analysis of the deposited data

Results flagged for a closer look

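For 2 members the log2 ratio of antibody over control IgG had opposite signs in different classes, each with an interval that excluded 0, and the difference between the classes was not tested. Tnfrsf9 was at 0.37 in CD8 and 0.79 in dividing cells and at -0.90 in NK cells. Cd28 was at 0.42 in CD8, 0.16 in dividing and 0.72 in NK cells and at -1.04 in regulatory cells, where it rested on 73 and 16 UMIs in 33 and 18 cells.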

How the results depend on the processing

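No paired analysis was possible because control IgG and antibody tumors were pooled into 1 library each, and for the same reason no replicate could be left out. Of the values for single classes, 496 of 519 under the alternatives stayed within the main counting interval. Among the 519 values for single classes the sign changed in 33, 30 of them for values whose main interval included 0, mostly in regulatory and CD8 cells. Tnfrsf1b in the joined T and NK cells lay between 0.54 and 0.60 under 12 alternatives. For antibody over control IgG in the joined T and NK cells, leaving out the exclusion panel gave log2 ratios of 0.30 for Tnfrsf4, 0.33 for Tnfrsf18, 0.26 for Cd27, 0.56 for Cd40lg, 0.38 for Cd28, 0.39 for Icos and 0.059 for Cd226, the last a change of sign. Removing cells with 1 panel UMI gave 0.42 for Tnfrsf4 and 0.55 for Tnfrsf9. Cd226 in dividing cells changed sign to 0.089 with no exclusion panel and to 0.0085 with free RNA subtracted, where 1 cell held 88.7% of the free RNA gene UMIs of the antibody class. Cd28 in regulatory cells changed sign to 0.57 with free RNA subtracted, where the free RNA estimate for the antibody class was 78.1% and came from 1 cell. That estimate also moved the regulatory over CD4 ratios, to 2.78 for Tnfrsf4, 2.53 for Tnfrsf18, 4.997 for Tnfrsf9, 2.68 for Cd27, 2.43 for Tnfrsf1b, 0.30 for Cd28 and 2.03 for Icos. The Tnfrsf4 ratio was 2.04 with no exclusion panel, 2.10 with exclusion at 1 UMI, 2.24 as a mean of per-cell CPM, 2.14 without the 10% deepest cells and 2.33 against CD4 cells without Il2ra or Ikzf2. The last choice gave 1.74 for Tnfrsf18 and 4.68 for Tnfrsf9, and the per-cell mean gave 1.79 for Tnfrsf18. The number of member and class pairs at least 2-fold higher was 1 in the main setting, 2 with no exclusion panel, 5 with exclusion at 1 UMI and 4 without the deepest cells, of 47 or 48 pairs tested, where 2%, 2.26%, 1.98% and 1.88% of all gene and class pairs were. The number at least 2-fold lower was 1, and it was 0 with a T gate of 1 Cd3 UMI, no exclusion panel, exclusion at 1 UMI, the deepest cells left out, dividing cells returned to their lineage, or cells rich in free RNA genes left out, an alternative chosen after seeing the data. Over all gene and class pairs 2.52% were 2-fold lower in the main setting and 2.45% to 4.12% under these. Apart from the free RNA estimate, the cause of these changes was not tested.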
